A study of Mus musculus with 18 samples.

Results

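The difference between recipients of old and of young gut microbiota was compared between 2 tissues of mice, liver and small intestine. For each gene the donor difference, the level in recipients of old microbiota (OMT) minus that in recipients of young microbiota (YMT), was taken in each tissue. The tissue difference is the donor difference in liver minus that in intestine, so a positive value means that OMT lay higher relative to YMT in liver than in intestine. It was estimated from all 18 arrays in 4 groups. A probe set entered if it had exactly 1 gene symbol and exceeded the median of the array on at least 4 of 9 arrays in each tissue, which held for 12500 of 41345 probe sets. Of 22180 genes with a probe set of exactly 1 symbol on the array, 11965 were tested. No gene entered this tested set for its response, although a gene could pass the level filter through a single donor group. The genes named below and the gene lists were chosen with earlier results of these data known.

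All recipients were young germ-free mice of the C57BL\6 strain, aged 5 to 6 weeks when they were inoculated, and all were followed for 8 weeks. Both groups were therefore newly colonised animals, and no group that kept its own flora or stayed without microbes is analysed here. OMT recipients received microbiota from donors given as about 24 months or 2 years old, and YMT recipients from donors whose age is 4 weeks in one label and 5 to 6 weeks in another. Age at sampling is given as 12 and as 13 weeks. Each tissue has 5 OMT and 4 YMT arrays, called biological replicates. How many donors or cages stood behind each group, and whether a liver and an intestine of one number came from one mouse, is not given in the sources used here, so a shared donor or cage cannot be told apart from donor age.

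The liver makes glucose, fatty acids, bile acids and plasma proteins, and receives through the portal vein what the small intestine absorbs and what its microbes release. The intestine takes up fat, sugars and iron, and carries a dense immune system beneath its epithelium. Many enzymes and transcription factors of metabolism are used in both tissues, among them PPARalpha, a receptor for fatty acids that switches on their oxidation. Protein folding responses, the circadian clock and the interferon response are general programmes that run in most cells.

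Levels are log2 array values and errors of levels are SDs; errors of differences are standard errors (SE) from limma. Called means an adjusted p under 0.05 in limma (Benjamini-Hochberg over the 11965 genes). The medians of the arrays ranged from 4.39 to 4.51 for intestine and from 4.12 to 4.22 for liver. All 12 hepatocyte markers exceeded the array median in liver and all 12 enterocyte markers did so in intestine. None of the 17 marker lists differed between donor groups after adjustment (lowest adjusted p = 0.0771, exact permutation test over the mean of the list). Lists of both tissues were adjusted together, so even a list at the smallest possible exact p could pass only if several others were low too. The missing calls therefore do not show that the lists were equal. At unadjusted exact p = 0.00794, the smallest that 5 against 4 allows, the means of 8 endothelial, 10 fibroblast and stellate cell and 7 enteroendocrine markers in liver lay lower in OMT. At exact p = 0.0159, 9 goblet cell and 9 T cell and NK cell markers in intestine lay lower in OMT, and 12 enterocyte and 5 adipocyte markers in liver lay higher, by 0.32 and 0.25. In liver only 3 of 7 enteroendocrine, 7 of 12 enterocyte and 3 of 5 adipocyte markers exceeded the array median. These 3 liver means rest partly on levels near background and are no measure of such cells. The enterocyte list holds Apoa4, which rose by 2.17 in liver. In whole tissue, fewer cells of a type and less RNA per cell cannot be told apart.

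The donor difference was unequal in the tissues for 1429 of 11965 genes (11.9%). For 946 genes the liver lay above the intestine (7.91%), and for 483 below (4.04%). A tissue difference of at least 1 on the log2 scale, which is 2-fold, was called for 256 genes (2.14%), 136 above and 120 below, and 3355 genes had an unadjusted p under 0.05. The split depends on scaling. The liver lay above for 66.2% of called genes on the deposited values, for 49.7% after quantile normalization within each tissue or over all arrays, and for 44.3% (620 above, 778 below) after each array was centred within its tissue, which moved the median tissue difference of all genes from 0.03 to -0.07. Without intestine YMT replicate 4 the count above was 625, and without intestine OMT replicates 1 and 2, the arrays of highest snoRNA level, it was 542. With the genes split into 4 equal parts by mean level, the share called was 3.84% in the lowest and 19.2% in the highest.

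**Figure D1:**
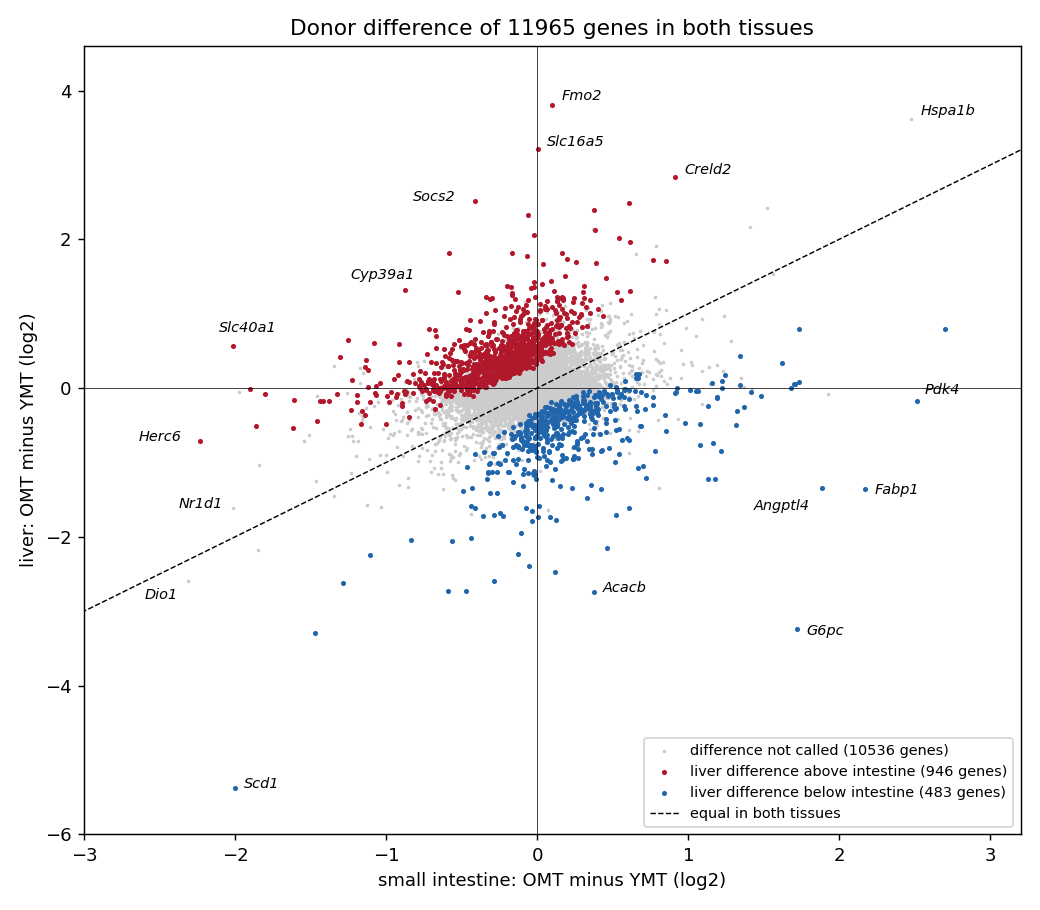
Donor difference (OMT minus YMT, log2) of each of 11965 genes, small intestine on the horizontal and liver on the vertical axis; the dashed line marks equal differences. Of the coloured genes, 946 lie above the line and 483 below it; Scd1 lies lowest on the liver axis and Fmo2 highest, and Hspa1b, Nr1d1 and Dio1 are not called as unequal.

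Most of the unequal genes were called in 1 tissue only. Of the 1429, 855 were called in liver alone (556 higher in OMT, 299 lower) and 329 in intestine alone (90 higher, 239 lower). A further 156 were called in neither tissue taken singly. In both tissues and in opposite directions 61 genes were called (0.51%), and all of them had a called tissue difference. Of these, 38 rose in liver and fell in intestine, and 23 fell in liver and rose in intestine. In the same direction 265 genes were called (2.21%), of which 77 rose and 188 fell, and the tissue difference was called for 28 of them. Without intestine YMT replicate 4 there were 28 genes in opposite directions, and without intestine YMT replicate 2 there were 38, with 167 in the same direction. Across genes the donor differences of the tissues had Pearson r = 0.22 and Spearman rho = 0.16 (n = 11965 genes, which are not independent replicates).

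The largest tissue difference belonged to a gene that moved in opposite directions. G6pc encodes the catalytic subunit of glucose-6-phosphatase, which releases free glucose in the last step of gluconeogenesis. In liver it lay at 10.79, 10.75, 10.39 and 11.21 on the YMT arrays and at 6.88, 6.85, 8.17, 7.69 and 8.12 on the OMT arrays. In intestine it lay at 6.02, 6.83, 6.63 and 5.83 in YMT and at 8.29, 7.07, 8.21, 8.94 and 7.74 in OMT. The donor groups did not overlap in either tissue: OMT was 9.47-fold lower in liver and 3.30-fold higher in intestine. The tissue difference was -4.97 ± 0.48 (limma adjusted p = 3.6e-06). In the OMT group the means of both tissues, 7.54 ± 0.65 in liver and 8.05 ± 0.69 in intestine, were closer together than in YMT, at 10.79 ± 0.34 and 6.33 ± 0.48. Whether the tissues were normalized together is not stated, so this comparison of levels holds only if they were.

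Angptl4, a secreted inhibitor of lipoprotein lipase and a target of PPARalpha, showed the same reversal. Its intestinal values were 6.56, 6.51, 5.75 and 6.44 in YMT and 7.82, 7.56, 8.34, 9.08 and 8.21 in OMT. Its liver values were 7.22, 7.71, 8.27 and 8.78 in YMT and 6.59, 6.69, 6.58, 6.64 and 6.73 in OMT. Again no value of one donor group reached the other. The liver OMT values spanned a narrow range (SD 0.06), while the YMT values were spread (SD 0.68), and the tissue difference was -3.24 ± 0.40 (limma adjusted p = 4.5e-05).

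Further genes fell in liver and rose in intestine. Acaa1b, a peroxisomal thiolase of fatty acid oxidation, lay at 10.06, 9.96, 9.86 and 9.88 in the YMT livers and at 8.18, 8.36, 8.49, 8.19 and 8.42 in the OMT livers. The intestinal values lay at 6.00, 5.70, 5.82 and 5.49 in YMT and 7.07, 6.19, 6.46, 6.04 and 6.04 in OMT, again without overlap, and its tissue difference was -2.22 ± 0.23. Cyp3a11, a major drug-metabolizing cytochrome P450 that the receptor PXR induces, lay at 9.96 to 10.20 in the YMT livers and at 8.09 to 9.45 in the OMT livers. In intestine its YMT values of 5.50, 6.70, 7.19 and 6.19 met the lowest of the OMT values (7.37, 7.72, 7.90, 7.69 and 7.19). Its tissue difference was -2.41 ± 0.40. The carboxylesterase Ces2g (-2.35 ± 0.42), Ttc39c (-2.23 ± 0.19) and the tubulin gene Tubb2a (-2.06 ± 0.37) completed the genes of this pattern among the 8 largest.

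Cyp39a1, an oxysterol hydroxylase of bile acid synthesis, went the other way. It lay at 7.74, 7.35, 7.72 and 7.60 in the YMT livers and 9.05, 8.77, 9.26, 8.92 and 8.60 in the OMT livers, but at 6.24, 5.50, 5.16 and 5.97 in the YMT and 4.49, 5.03, 4.77, 4.92 and 4.99 in the OMT intestines. Its tissue difference of 2.19 ± 0.25 (limma adjusted p = 2.5e-05) rested on groups that did not overlap in either tissue. Lbp, which encodes the plasma protein that hands bacterial lipopolysaccharide to its receptor complex, shared this pattern. Its liver values rose from 7.99 to 8.68 in YMT to 9.55 to 9.87 in OMT, and its intestinal values were 5.03, 4.90, 4.86 and 5.37 in YMT and 4.52, 4.47, 4.37, 4.70 and 4.50 in OMT. The tissue difference of Lbp was 1.82 ± 0.18. Its OMT intestinal values lay near the array medians (4.39 to 4.51), so the size of its fall there is uncertain. Fmo1, a flavin monooxygenase, rose in liver by 0.79 and fell by 0.46 in intestine.

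**Figure D2:**
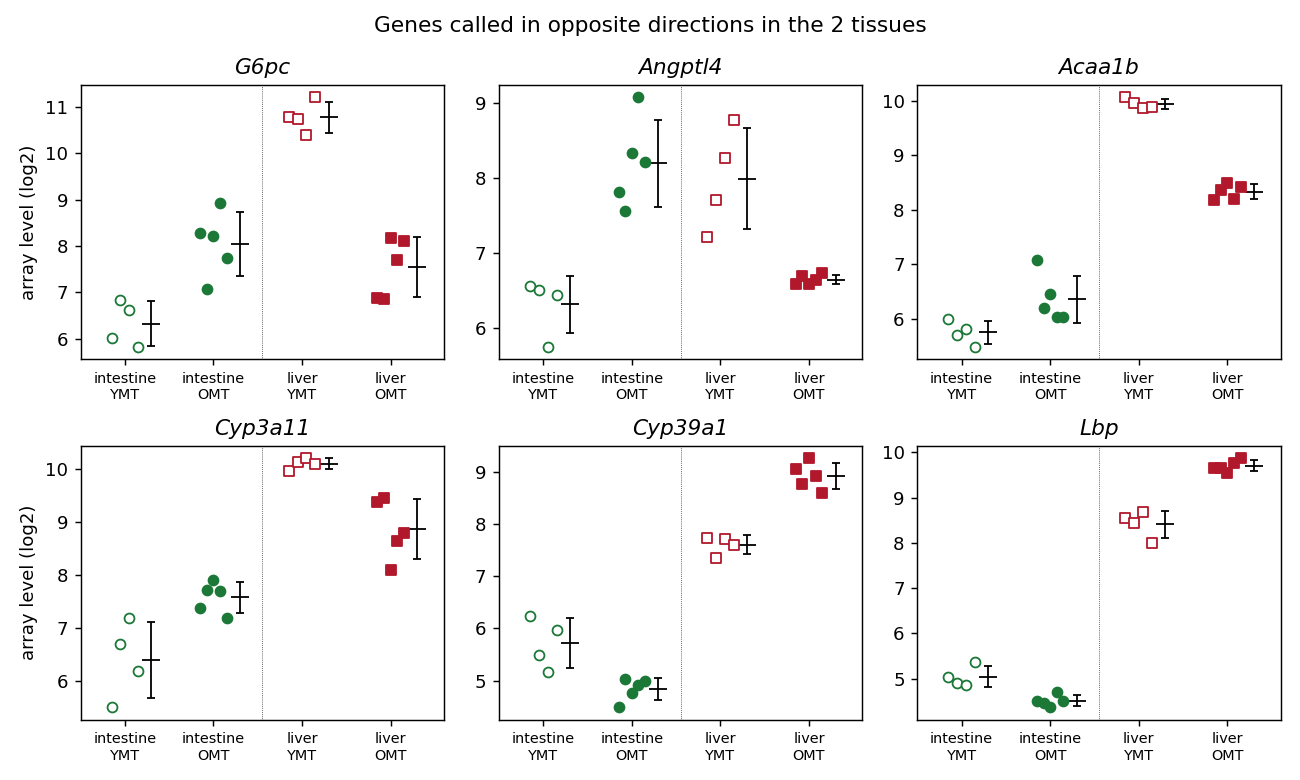
Level on each array (log2) of 6 genes called in opposite directions in the tissues, with group means and SDs beside the points (5 OMT and 4 YMT arrays per tissue); axes differ between genes and do not start at 0. G6pc, Angptl4, Acaa1b and Cyp3a11 fell in the OMT livers and rose in the OMT intestines, and Cyp39a1 and Lbp did the reverse. The OMT intestinal values of Lbp lie near the array medians.

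Genes of glucose handling were unequal more often than the 11.9% of all genes, with 12 of 21 tested (57.1%), 4 above and 8 below. Beside G6pc the 8 included Khk, the first enzyme of fructose breakdown (-1.80 ± 0.22), and Tkfc, which acts later in the same pathway (-1.78 ± 0.23). Both fell in liver, by 1.47 and by 1.36, and were not called in intestine (0.33 and 0.42). Pck1, which commits carbon to gluconeogenesis, rose in intestine by 1.08 and measured -0.76 in liver (adjusted p = 0.055), a tissue difference of -1.84 ± 0.39. Without intestine OMT replicates 1 and 2 the count above was 2.

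Of 25 targets of PPARalpha and genes of fatty acid oxidation, 7 lay below and 2 above (4 above without liver OMT replicates 1 and 2). Unequal were 36%, against 11.9% of all genes. Members called in intestine mostly rose there (10 rose and 1 fell, where 2.61% and 7.37% of all genes did). In liver 6 rose and 5 fell (11.6% and 8.43% of all genes). Pdk4, a kinase that restrains the use of pyruvate, lay at 4.38, 4.87, 4.88 and 4.72 in the YMT intestines and at 7.99, 7.17, 7.19, 7.76 and 6.04 in the OMT intestines. In liver it lay between 5.36 and 5.85 in YMT and between 5.22 and 5.62 in OMT, so that only the intestinal groups stood apart, and its tissue difference was -2.70 ± 0.37 (limma adjusted p = 0.00014). Acaa2, the mitochondrial thiolase, rose in intestine by 1.19 and measured -0.13 in liver. Ppara itself, which encodes the receptor, rose in intestine by 0.42 and had a tissue difference of -0.57 ± 0.16 (limma adjusted p = 0.028), a call lost when any of 4 arrays was left out.

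Fabp1, which carries fatty acids inside hepatocytes and enterocytes, had the second largest negative tissue difference (-3.52 ± 0.71, limma adjusted p = 0.0038). Its liver values were 11.92, 12.10, 12.05 and 12.24 in YMT and 10.53, 10.66, 10.80, 10.73 and 10.91 in OMT, without overlap. Its intestinal values were 5.74, 8.55, 9.43 and 7.58 in YMT and 11.00, 9.20, 10.01, 10.62 and 9.16 in OMT, where intestine YMT replicate 1 stood far below the rest. The fit gives both tissues 1 spread, which here comes mostly from intestine, and the donor difference in liver was not called (-1.35, adjusted p = 0.065). Without intestine YMT replicate 1 the tissue difference was -2.83 (adjusted p = 0.0021).

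Fatty acid and triglyceride synthesis is the route that turns surplus carbohydrate into fat. Of 21 genes tested, 15 lay below (71.4%, against 4.04% of all genes) and none above. The median donor difference was -1.78 in liver and -0.13 in intestine. In liver 18 members fell, where 8.43% of all genes did. In intestine 5 fell (7.37% of all genes) and 1 rose (2.61%). The medians of all genes tested were -0.0015 in liver and -0.02 in intestine. Leaving out single arrays gave 12 to 15 members below.

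Acacb, the mitochondrial acetyl-CoA carboxylase, lay at 9.34, 8.78, 8.01 and 9.03 in the YMT livers and at 6.23, 5.65, 6.30, 5.72 and 6.37 in the OMT livers. In intestine, values stood at 4.47, 4.27, 4.63 and 4.28 in YMT and 4.71, 4.70, 4.67, 4.75 and 5.10 in OMT, close to the array medians. Its tissue difference was -3.11 ± 0.29 (limma adjusted p = 2.8e-06). Further enzymes with called falls in liver and no call in intestine were Me1, the malic enzyme that supplies NADPH (-2.59 ± 0.55), and Acly, which makes cytosolic acetyl-CoA (-2.13 ± 0.34). Others were Pklr, the liver form of pyruvate kinase (-2.11 ± 0.21), and Lpin1, a phosphatidate phosphatase (-2.31 ± 0.29). The intestinal values of Lpin1 did not overlap (5.67 to 5.91 in YMT, 5.37 to 5.64 in OMT). Because the fit gives both tissues 1 spread, a missing call in intestine does not show equal levels there.

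Scd1, the desaturase that makes monounsaturated fatty acids, was the gene of largest fall in liver among the tested genes of this pathway. It lay at 12.82, 12.75, 12.48 and 12.84 in the YMT livers and at 9.21, 9.40, 5.90, 5.63 and 6.61 in the OMT livers, where replicates 1 and 2 stood above the other 3. On the intestinal arrays it lay at 8.38, 6.60, 6.17 and 6.80 in YMT and 4.42, 4.88, 5.50, 4.89 and 5.24 in OMT, lower in every OMT array although not called (adjusted p = 0.053). The tissue difference of -3.37 ± 0.90 (limma adjusted p = 0.021) therefore separated a deep fall from a smaller difference of the same sign. It was -4.67 without liver OMT replicates 1 and 2, and -3.84 without intestine YMT replicate 1. Over all arrays left out singly it ran from -3.88 to -2.94.

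Genes of lipid transport were unequal for 6 of 17 tested (35.3%, against 11.9% of all genes), 1 above and 5 below. Slc27a2, a fatty acid transporter and acyl-CoA synthetase, rose in intestine by 1.41 and measured -0.05 in liver. Apoc2, the cofactor of lipoprotein lipase, rose in intestine by 1.68 and measured 0.00 in liver. Pltp, the phospholipid transfer protein, fell by 1.14 in liver and measured -0.33 in intestine. The member above was Lcat, which esterifies plasma cholesterol, with a rise of 0.89 in liver; in the YMT intestines it lay below the array medians, so the size of its tissue difference of 0.65 is uncertain. Without intestine YMT replicate 4 there were 3 members below.

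**Figure D3:**
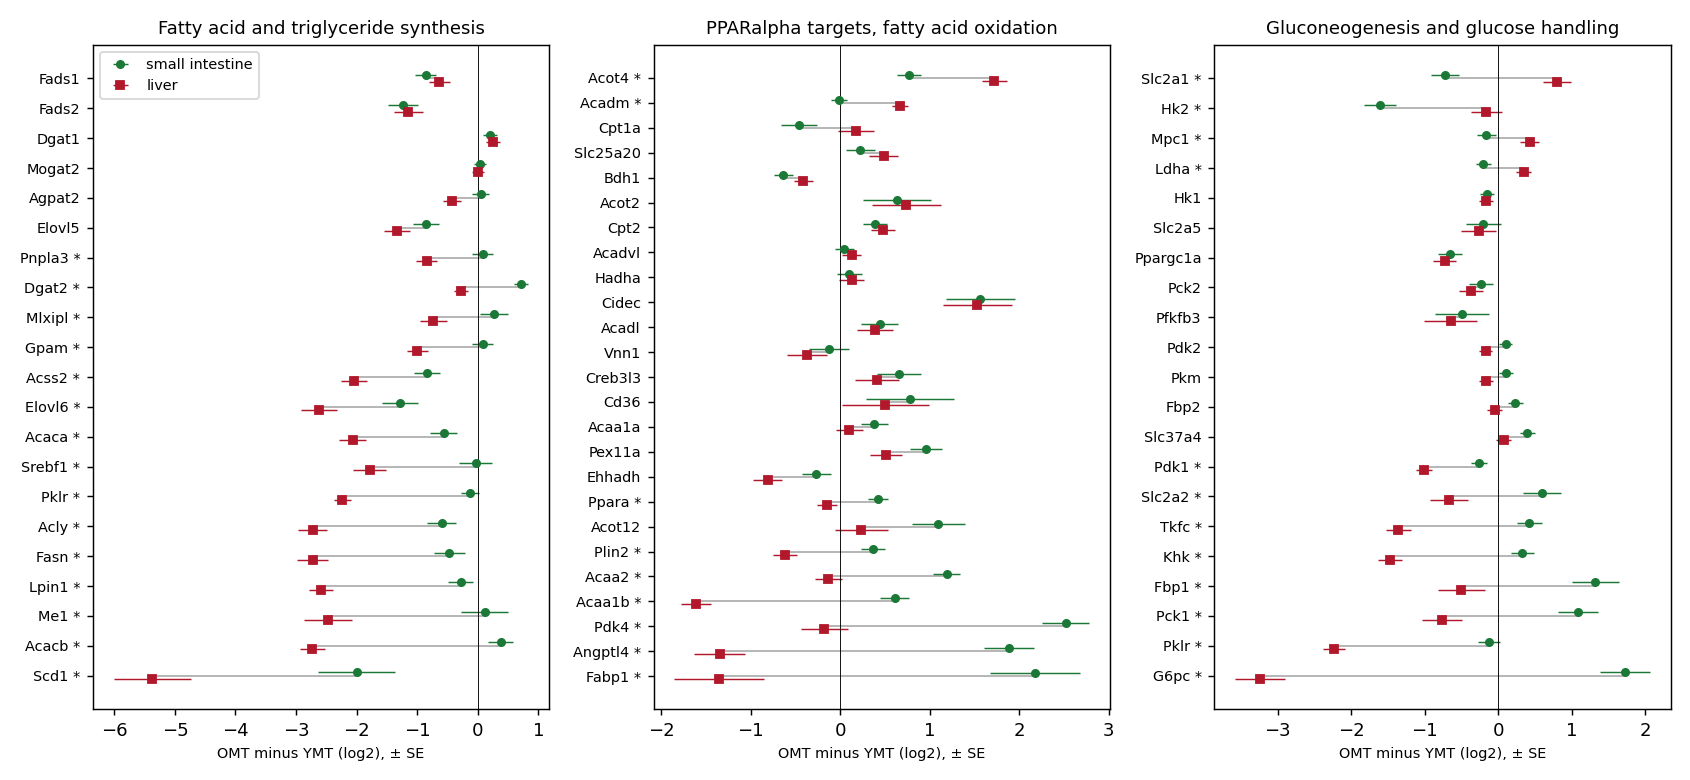
Donor difference (OMT minus YMT, log2, ± SE; 5 OMT and 4 YMT arrays per tissue) of every tested member of 3 gene lists, with intestine as circles, liver as squares and an asterisk at genes whose tissue difference was called; horizontal scales differ. The synthesis genes spread to the left in liver, with Scd1 at -5.37, while Pdk4, Angptl4 and Fabp1 spread to the right in intestine.

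Chaperones of the endoplasmic reticulum fold secreted and membrane proteins, and the unfolded protein response raises them through ATF6 and XBP1. Of 20 tested members, 15 lay above (75%) and none below, against 7.91% of all genes above. In liver 18 rose (11.6% of all genes did), with a median donor difference of 1.01. In intestine 3 rose (2.61% of all genes did), with a median of 0.15. The count above was 13 to 16 with single arrays left out and 13 without liver OMT replicates 1 and 2.

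Promoters are shown for 4 members, chosen after their values were seen, because they hold the endoplasmic reticulum stress element, to which ATF6 and NF-Y bind. The stretches are from RefSeq GRCm38.p6, 5′ to 3′ on the strand of the gene, and capitals mark the fixed bases of the element, CCAAT and CCACG with 9 bases between them, or of its reverse complement.
Hspa5, chr2:34772010-34772058, plus strand: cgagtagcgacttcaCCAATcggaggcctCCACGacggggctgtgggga
Creld2, chr15:88819505-88819553, plus strand: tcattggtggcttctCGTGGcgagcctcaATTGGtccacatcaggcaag
Derl3, chr10:75893227-75893275, plus strand: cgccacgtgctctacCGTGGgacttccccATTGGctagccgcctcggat
Syvn1, chr19:6046517-6046565, plus strand: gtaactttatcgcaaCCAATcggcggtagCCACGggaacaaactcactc
The element was searched on both strands in the 250 bases before each start site and occurred in 37 of 32851 promoters (0.113%). Of 18 list members with a promoter sequence 9 held it, and 7 of these lay above. Of 9407 tested genes with a promoter sequence 16 held it, of which 8 lay above and 1 below. These 16 include the 9 list members, and of the whole list 75% lay above. Whether the element goes with the tissue difference was not tested. A match is a description of the sequence and not a measured binding site.

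Creld2, a secreted factor of the stress response, lay at 7.67, 7.35, 7.57 and 7.84 in the YMT livers and at 10.84, 11.08, 10.16, 9.96 and 10.16 in the OMT livers. Intestinal levels lay at 8.60, 8.52, 8.78 and 9.38 in YMT and 9.82, 9.91, 9.67, 9.72 and 9.55 in OMT. It rose in both tissues without overlap, 7.12-fold in liver and 1.88-fold in intestine, and the tissue difference was 1.92 ± 0.29 (limma adjusted p = 0.00036). Sdf2l1, a cofactor of the chaperone BiP, lay at 7.05, 6.63, 6.92 and 6.84 in the YMT and 9.54, 9.73, 9.09, 8.91 and 8.98 in the OMT livers. In intestine its values ran from 7.68 to 8.25 in YMT and from 8.02 to 8.58 in OMT and overlapped. Its tissue difference was 2.02 ± 0.23.

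Hspa5, which encodes BiP itself, lay at 8.76, 8.83, 9.07 and 9.20 in the YMT livers and at 10.56, 10.66, 10.19, 10.02 and 10.23 in the OMT livers. In intestine it lay at 9.05, 9.14, 8.99 and 9.55 in YMT and 9.42, 9.40, 9.70, 9.45 and 9.50 in OMT, so only the liver groups stood apart (tissue difference 1.06 ± 0.19, limma adjusted p = 0.002). Derl3, a channel component of the degradation of misfolded proteins, lay at 4.28 to 5.04 in the YMT livers and at 8.05, 8.26, 6.47, 5.74 and 6.42 in the OMT livers, with replicates 1 and 2 highest. Its intestinal values lay between 4.68 and 5.33 in both donor groups. Its tissue difference of 2.38 ± 0.52 became 1.61 without those replicates (adjusted p = 0.0011). Pdia3, a disulfide isomerase (0.65 ± 0.10), and Herpud1, a scaffold of the degradation machinery (0.90 ± 0.16), rose in liver and were not called in intestine.

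Smaller shares of the neighbouring stress lists were unequal. Of 14 tested cytosolic heat shock chaperones, which the factor HSF1 drives, 12 rose in liver (11.6% of all genes did) and 9 in intestine (2.61% of all genes). In both tissues 7 rose (0.644% of all genes did), and 2 lay above (14.3%, where 11.9% of all genes were unequal). Those were Bag3, a cochaperone (1.32 ± 0.22), and Hsp90aa1 (0.76 ± 0.17). Hspa1b, the inducible Hsp70, lay at 5.62, 5.85, 6.30 and 6.66 in the YMT livers and 9.04, 9.95, 10.19, 9.92 and 9.53 in the OMT livers. The intestinal values lay at 5.78, 5.86, 5.87 and 8.40 in YMT and 8.94, 9.26, 8.79, 8.59 and 9.19 in OMT, where YMT replicate 4 came close to the OMT arrays. It rose in both tissues, and its tissue difference was 1.14 ± 0.57 (95% interval -0.06 to 2.34, limma adjusted p = 0.2), or 0.50 without intestine YMT replicate 4. Hsph1, a nucleotide exchange factor of Hsp70, measured 0.90 ± 0.45, or 0.38 without that array. The heat shock element is the blocks GAA, TTC and GAA with 2 bases between neighbours, searched on both strands together with TTC, GAA and TTC. It stood in promoters of 2 of 12 members, Hspd1 and Hspe1, and of 44 of 9407 tested genes. Counted singly, 153 of 32851 promoters held it (0.466%).

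Of 12 genes of the ATF4 response to amino acid shortage, 5 lay above (41.7%, against 7.91% of all genes) and none below. They included Asns, asparagine synthetase (1.98 ± 0.45), and Ddit3, a factor of prolonged stress (1.44 ± 0.26). The count fell to between 2 and 3 for 9 of the 18 arrays left out. It was 2 after each array was centred within its tissue and 3 after quantile normalization.

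**Figure D4:**
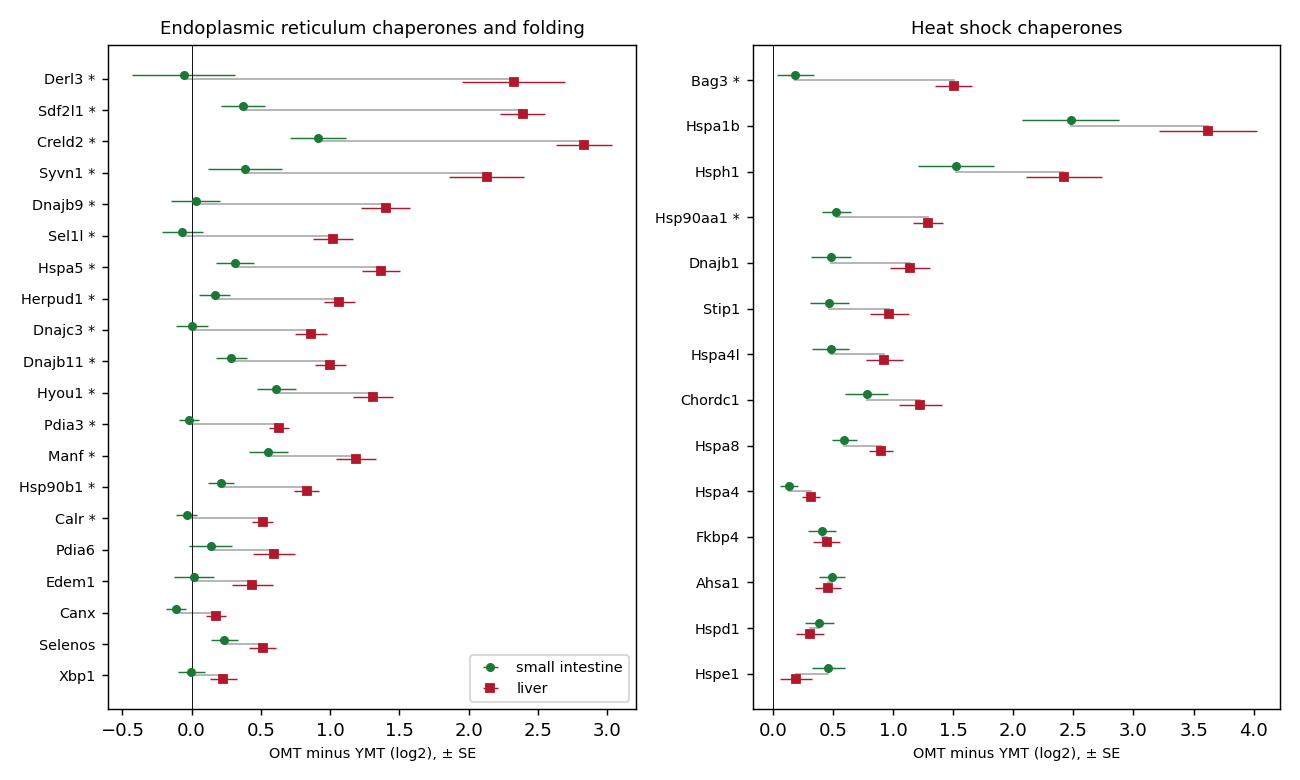
Donor difference (OMT minus YMT, log2, ± SE; 5 OMT and 4 YMT arrays per tissue) of the tested endoplasmic reticulum chaperones and heat shock chaperones, intestine as circles and liver as squares; an asterisk marks a called tissue difference and the horizontal scales differ. The liver squares lie to the right of the intestinal circles for all 20 reticulum members, 15 of them called, whereas Hspa1b and Hsph1 lie far from 0 in both tissues.

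Interferon response genes, which restrict viruses and intracellular microbes, fell in OMT wherever they were called. Of 28 tested, 16 fell in intestine (median -0.82, where 7.37% of all genes fell) and 6 in liver (median -0.46, where 8.43% did). In both tissues 5 fell (1.57% of all genes did), and none rose in either. Unequal were 5 (17.9%, against 11.9% of all genes), 4 above and 1 below, and the count above ranged from 2 to 7 with single arrays left out, moving by more than 1.5 times for 8 of the 18. It was 1 without OMT replicates 1 and 2 of liver, and also 1 without those of intestine. At each end of this pattern a promoter is shown: Bst2 fell in both tissues, and Irgm1 was unequal. Capitals mark the fixed bases of the interferon-stimulated response element, a pair of GAAA blocks 2 bases apart, which occurs 2 times and overlapping in each.
Bst2, chr8:71537572-71537617, minus strand: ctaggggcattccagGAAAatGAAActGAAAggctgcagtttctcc
Irgm1, chr11:48871421-48871465, minus strand: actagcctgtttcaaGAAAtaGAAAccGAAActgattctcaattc
The element was searched on both strands and stood in 978 of 32851 promoters (2.98%). Of 19 list members with a promoter sequence 11 held it, and 2 of these lay above. Of 9407 tested genes with a promoter sequence 289 held it, of which 22 lay above and 11 below (11.4% called, near the 11.9% of all genes).

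Bst2, or tetherin, which holds budding viruses at the cell surface, lay at 9.82, 10.19, 9.75 and 9.65 in the YMT livers and 8.45, 8.78, 8.09, 8.28 and 7.77 in the OMT livers. In intestine, values stood at 6.35, 6.44, 6.94 and 7.04 in YMT and 4.80, 5.42, 5.54, 6.29 and 5.76 in OMT. The donor groups did not overlap in either tissue, and the tissue difference was -0.45 ± 0.34 (95% interval -1.16 to 0.26, limma adjusted p = 0.41), or -0.27 without intestine OMT replicate 4. Irf7, the factor that amplifies the interferon response, fell by 1.21 in liver and by 0.86 in intestine, with a tissue difference of -0.35 ± 0.26, or -0.20 without intestine YMT replicate 1. A missed threshold does not show that these tissues responded alike.

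Irgm1, a GTPase of defence against intracellular pathogens, lay at 6.17, 6.49, 7.04 and 6.72 in the YMT and 5.52, 5.76, 5.37, 5.78 and 5.92 in the OMT intestines. In liver it lay between 5.92 and 6.09 in YMT and between 5.71 and 6.14 in OMT, and the tissue difference was 0.81 ± 0.21 (limma adjusted p = 0.017). Zbp1, a sensor of nucleic acids, fell by 1.90 in intestine and measured -0.02 in liver (tissue difference 1.88 ± 0.47). Herc6, an interferon-induced ligase, measured 1.52 ± 0.45, a call lost when any of 10 arrays was left out. The member below was Ifi27, which fell from 8.10, 8.49, 8.02 and 8.20 to 6.74, 6.79, 6.85, 6.83 and 6.75 in liver. Its intestinal values overlapped, from 6.57 to 6.91 in YMT and from 6.21 to 6.63 in OMT (tissue difference -1.10 ± 0.15).

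Of 19 antigen presentation genes 12 fell in liver (8.43% of all genes did) and 14 in intestine (7.37%), 11 of them in both (1.57%). Only 1 lay above, H2-DMa, which loads peptides onto class II molecules (0.84 ± 0.17), and 1 below (10.5% unequal, near the 11.9% of all genes). The count below was 0 to 2 with single arrays left out. Beside these lists, the mean of 9 T cell and NK cell markers, all above the array median in intestine, ran from 6.57 to 7.12 in the OMT and from 7.04 to 7.61 in the YMT intestines. The mean of 8 endothelial markers, all above the median in liver, ran from 6.51 to 6.80 in OMT and from 6.94 to 7.25 in YMT livers. Their part in these results was not tested. Of 18 sensors of microbial patterns 5 lay above and 1 below (33.3%, against 11.9% of all genes). But the count above was 0 to 6 with single arrays left out and moved by more than 1.5 times for 14 of the 18. It was 1 after each array was centred within its tissue. Ly96, the partner of the lipopolysaccharide receptor, fell by 1.80 in intestine (tissue difference 1.73 ± 0.49, a call lost when any of 3 arrays was left out), and the cytokine gene Il18 fell by 0.84 in liver (tissue difference -1.27 ± 0.26).

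The circadian clock is a loop of transcription factors that keeps daily time in most tissues. Of its 17 tested genes, 4 were called in the same direction in both tissues, where 2.21% of all genes were. A called tissue difference was found for 2 (11.8%, against 11.9% of all genes). Nr1d1, a repressor in the loop, lay at 9.76, 8.81, 8.75 and 8.62 in the YMT livers and 8.38, 7.72, 6.53, 7.02 and 7.18 in the OMT livers. On the intestinal arrays it lay at 9.35, 9.69, 9.41 and 9.18 in YMT and 7.37, 7.72, 7.85, 7.17 and 6.86 in OMT. It fell in both without overlap, and its tissue difference was 0.39 ± 0.42 (95% interval -0.49 to 1.28, limma adjusted p = 0.58), or -0.06 without liver OMT replicates 1 and 2. The tissue differences of Cry1 (0.25 ± 0.20), another repressor, and of the output factor Dbp (-0.17 ± 0.27) were not called either. Per1 lay above (1.21 ± 0.32), a call lost without liver OMT replicates 1 and 2 (0.97, adjusted p = 0.064), and Bhlhe40 below (-0.84 ± 0.21). The time of day of sampling is not given in the sources used here. The E-box CACGTG stood in promoters of 4 of 16 clock genes and of 938 of 9407 tested genes. Counted singly, 1978 of 32851 promoters held it (6.02%). The D-box TTATGTAA stood in promoters of 1 of 16 clock genes and of 46 of 9407 tested genes, and in 269 of 32851 single promoters (0.819%).

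The other genes chosen by the rule, called in the same direction in both tissues with no called tissue difference, are a varied group. Dio1, which activates thyroid hormone, lay at 9.29, 8.70, 9.11 and 8.97 in the YMT and 6.05, 6.89, 6.74, 6.38 and 6.08 in the OMT livers, and at 7.57, 8.29, 8.73 and 7.92 in the YMT and 5.95, 6.28, 6.14, 5.24 and 5.47 in the OMT intestines. Its tissue difference was -0.28 ± 0.34 (95% interval -0.99 to 0.43, limma adjusted p = 0.64). The T cell attractant Cxcl9 (-0.33 ± 0.48) and the interferon-induced Ly6e (-0.11 ± 0.37) fell in both tissues, and Cidec, a lipid droplet protein (-0.03 ± 0.54), rose in both. With single arrays left out these uncalled differences turned sign, with ranges of -0.64 to 0.06 for Cxcl9 (the highest without liver YMT replicate 4), -0.33 to 0.07 for Ly6e and -0.25 to 0.34 for Cidec. They moved by more than 1.5 times for 6, 13 and 17 of the 18 arrays. Apoa4, an apolipoprotein, rose in both with a tissue difference of 0.76 ± 0.45 that was called without intestine YMT replicate 1 (1.21, adjusted p = 0.021).

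Genes of iron handling were unequal for 8 of 14 tested (57.1%, against 11.9% of all genes), 7 above and 1 below. Slc40a1 encodes ferroportin, the only known exporter of cellular iron. It lay at 7.54, 6.44, 5.09 and 7.35 in the YMT and 3.87, 4.63, 4.58, 4.63 and 5.25 in the OMT intestines, where YMT replicate 3 fell among the OMT arrays. In liver it lay at 8.25, 8.26, 8.66 and 8.34 in YMT and 8.79, 8.90, 9.09, 8.90 and 9.0 in OMT. The tissue difference was 2.57 ± 0.49 (limma adjusted p = 0.0026). It was 3.08 without intestine YMT replicate 3 and 2.26 without intestine YMT replicate 1. The OMT intestinal values of Slc40a1 lay near the array medians (4.39 to 4.51), so the size of its fall there is uncertain. Tfrc, the transferrin receptor for iron uptake, lay at 5.54, 5.57, 5.80 and 5.85 in the YMT and 7.50, 7.31, 7.97, 7.90 and 7.86 in the OMT livers. In intestine its values ran from 7.56 to 8.07 in YMT and from 8.00 to 8.84 in OMT. It rose in both tissues, and more in liver (tissue difference 1.48 ± 0.23). Hmox1, the heme oxygenase (1.19 ± 0.21), and the iron importer Slc11a2 (0.86 ± 0.17) rose in liver and were not called in intestine.

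Of 11 tested acute phase genes, whose products the liver secretes in inflammation, 5 lay above (45.5%, against 7.91% of all genes) and none below. Beside Lbp they included Hp, or haptoglobin (0.88 ± 0.11), and Lcn2, which withholds iron from bacteria (1.89 ± 0.51). The count was 3 without intestine YMT replicate 4 and 2 without intestine OMT replicates 1 and 2.

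In the growth hormone axis 3 of 15 genes were unequal (20%, against 11.9% of all genes), 2 above and 1 below. Socs2, a feedback inhibitor of the growth hormone receptor, lay at 5.82, 4.40, 6.62 and 5.77 in the YMT and 8.35, 7.52, 7.75, 8.75 and 8.47 in the OMT livers. Intestinal levels lay between 7.35 and 7.57 in YMT and between 6.73 and 7.43 in OMT, and the tissue difference was 2.93 ± 0.45 (limma adjusted p = 0.0004). Bcl6, a repressor that growth hormone lowers in liver, fell by 2.39 in liver and measured -0.05 in intestine. The count above was 1 for 6 of the 18 arrays left out.

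Genes of xenobiotic metabolism were unequal in both directions, 6 above and 5 below of 26 (42.3%, against 11.9% of all genes). Fmo2, a flavin monooxygenase that oxidises drugs and other compounds, had the largest positive tissue difference of all genes with a name. It lay at 5.82, 6.02, 5.99 and 6.54 in the YMT and 10.24, 9.67, 9.61, 9.95 and 10.01 in the OMT livers, a 14.0-fold rise. In intestine it lay between 5.18 and 5.33 in YMT and between 4.86 and 5.72 in OMT, and the tissue difference was 3.70 ± 0.23 (limma adjusted p = 2.3e-08). Ephx2, an epoxide hydrolase, rose in intestine by 1.48 and measured -0.11 in liver.

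Slc16a5, a monocarboxylate transporter, came next to Fmo2. It lay at 4.61, 5.35, 5.24 and 5.68 in the YMT and 7.96, 8.14, 8.99, 8.47 and 8.59 in the OMT livers, while all 9 intestines lay between 9.52 and 9.81. The tissue difference was 3.21 ± 0.26. Trim24, a transcriptional cofactor, rose by 2.06 in liver and measured -0.02 in intestine, and Mme, the peptidase neprilysin, fell by 2.15 in liver and measured 0.46 in intestine.

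Cholesterol synthesis genes had a lower median in intestine (-0.67) than in liver (-0.09), and 6 of 19 lay above and 1 below. Unequal were 36.8%, against 11.9% of all genes. In liver 6 members fell (8.43% of all genes did) and 1 rose (11.6%). In intestine 6 fell (7.37% of all genes) and 0 rose, and 2 fell in both tissues (1.57% of all genes). Srebf2, the master regulator of the pathway, had a tissue difference of 1.14 ± 0.27, and Sqle, squalene epoxidase, one of 1.91 ± 0.59, a call lost when any of 13 arrays was left out. The member below was Sc5d, a late enzyme (-0.83 ± 0.18). The count above ranged from 2 to 8 with single arrays left out and was 3 after quantile normalization within each tissue. Of 15 genes of bile acid and sterol handling 2 lay above and 1 below (20% unequal, against 11.9% of all genes). Nr1h4, which encodes the bile acid receptor FXR, fell by 0.92 in intestine and measured 0.35 in liver (tissue difference 1.27 ± 0.20), and Cyp27a1, of the alternative synthesis route, rose by 0.69 in intestine (tissue difference -1.20 ± 0.27). The count below was 2 without liver OMT replicate 2 and 4 without replicates 1 and 2.

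Subunits of the constitutive proteasome lay above for 8 of 29 (27.6%, against 7.91% of all genes) and below for none. Psmd7 (0.77 ± 0.17) rose in liver, Psma1 (0.75 ± 0.17) fell in intestine, and Psmd3 (0.56 ± 0.13) did both. The count was 4 without intestine YMT replicate 4, 5 without liver YMT replicate 4, and 18 without liver OMT replicates 1 and 2. Of 22 genes of amino acid breakdown and the urea cycle 8 lay above (36.4%, against 7.91% of all genes). Among them were Nags, which makes the activator of the cycle (0.86 ± 0.12), and the cycle enzyme Asl (1.17 ± 0.25). The count above was 4 to 5 for 9 of the 18 arrays left out.

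The remaining lists held fewer or mixed calls. Above and below were 5 and 1 of 17 thyroid and glucocorticoid response genes (35.3% unequal, against 11.9% of all genes). They were 4 and 3 of 20 NRF2 and antioxidant genes (35%). They were 2 and 1 of 23 autophagy and lysosome genes (13%), and 2 and 1 of 25 in the signalling of AMPK, SIRT1 and mTOR (12%). The shares of the autophagy and AMPK lists were near the 11.9% of all genes. In the last list Ulk1, the kinase that starts autophagy, fell in both tissues and more in liver (-1.36 ± 0.14), whereas Mtor (-0.20 ± 0.12), Sirt1 (0.11 ± 0.10) and Prkaa2, an AMPK subunit (0.27 ± 0.35), had no called tissue difference. Lamp2, a lysosomal membrane protein, fell by 0.68 in intestine (tissue difference 0.81 ± 0.16). Below were 2 of 18 immediate early genes (11.1%, near the 11.9% of all genes), Fosb (-1.31 ± 0.26), which rose in intestine, and Dusp1 (-1.16 ± 0.29), which fell in liver. There were 2 of 38 oxidative phosphorylation genes below (5.26%, against 4.04% of all genes). Above were 1 of 17 cell cycle genes (5.88%) and 1 of 14 insulin signalling genes (7.14%), against 7.91% of all genes. Of 26 ribosomal protein genes 0 were unequal, where 1 lay below without intestine YMT replicate 1 or liver OMT replicate 4. With single arrays left out the counts above ran from 1 to 6 for the thyroid and glucocorticoid list, 1 to 5 for NRF2, 1 to 5 for autophagy, 0 to 2 for AMPK, 0 to 5 for the cell cycle and 0 to 1 for insulin signalling, and the count below from 1 to 2 for oxidative phosphorylation.

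**Figure D5:**
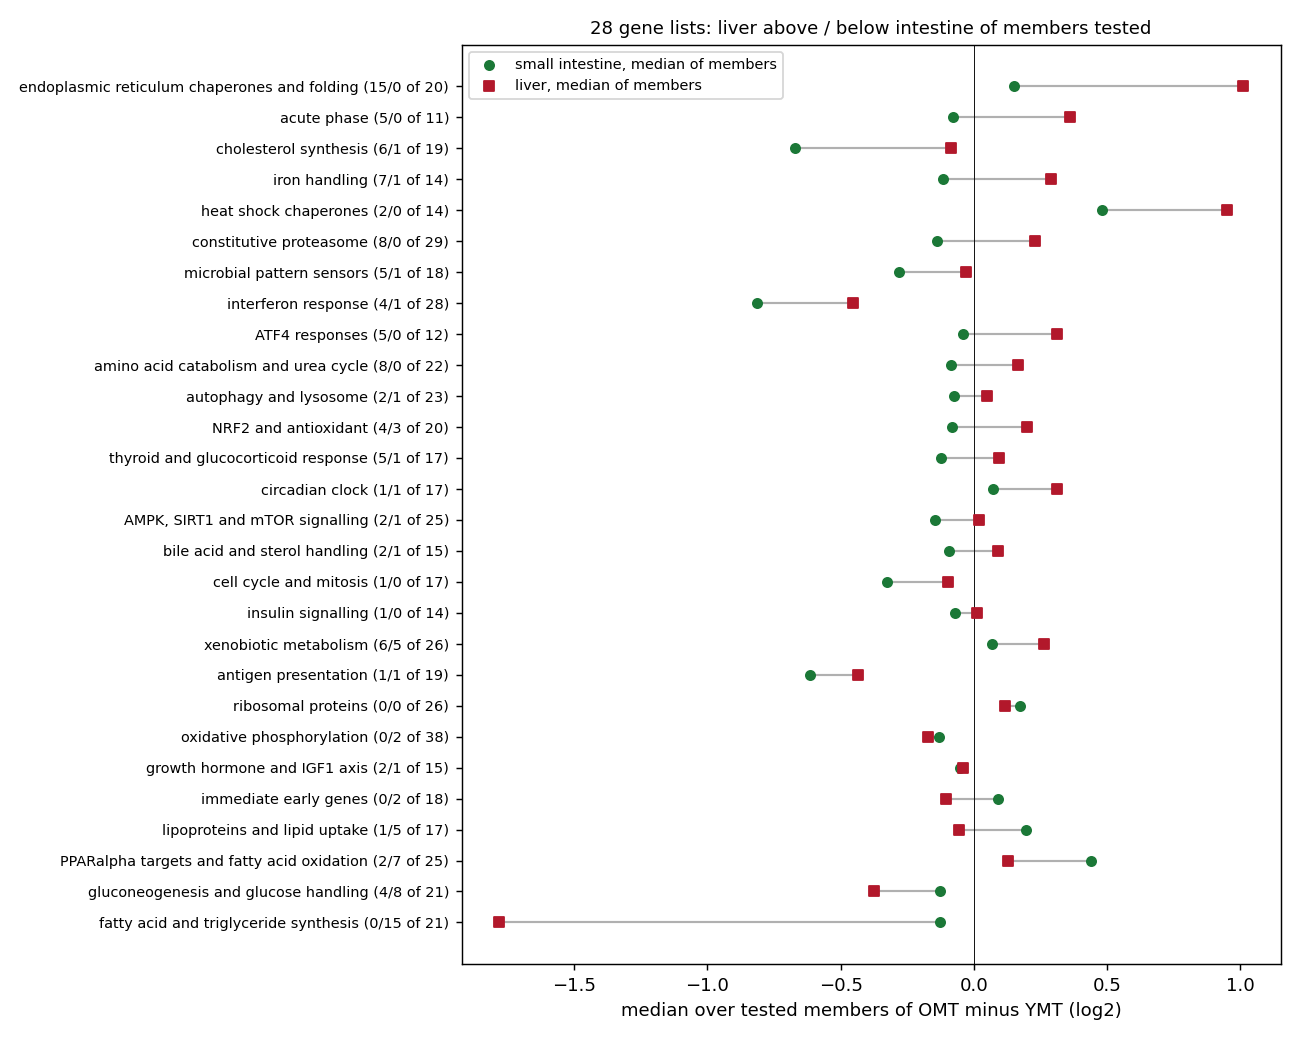
Median over the tested members of 28 gene lists of the donor difference (OMT minus YMT, log2) in intestine (circles) and liver (squares), with the numbers of members above and below and of members tested beside each name; no error is drawn because members share arrays. Fatty acid synthesis (medians -1.78 in liver and -0.13 in intestine) and the endoplasmic reticulum chaperones (1.01 and 0.15) lie at the ends.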

How the data were processed

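RNA of 9 livers and 9 small intestines was measured on 1 Affymetrix array each. The log2 levels deposited by the authors come from RMA, run in Affymetrix Expression Console according to what is said per the submitters' processing notes. Versions, the log base and whether the tissues were normalized together are unstated here, and base 2 was taken from the range of the values. RMA levels compress low signals. No batch is given in the labels used here. Arrays have no counting depth; their number and the level over background limit precision.

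Of 41345 probe sets, 23521 had 1 symbol in the platform annotation, 1814 several and 16010 none here; 23328 of the 23521 were updated by gene identifier in RefSeq GRCm38.p6. Where a gene had several probe sets, the one with the highest mean over all arrays stood for it. limma 3.58.1 in R 4.3.3 was fitted to all 18 arrays in 4 groups (lmFit and eBayes, two-sided, Benjamini-Hochberg, threshold 0.05). Means of marker lists were compared by two-sided exact permutation tests, adjusted over lists and tissues. The steps were tested on simulated arrays. Figures were drawn with matplotlib.

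Named were the 12 largest positive and 12 largest negative called tissue differences, the 8 largest in opposite directions, the 8 largest called in the same direction without a called difference, up to 4 called members of smallest p per list, and 16 set genes; clone-like names were passed over, and further list members are named where a sequence or motif is given. The genes, lists and tests were chosen with earlier results of these data known. Alternatives were other filters, scalings, probe set rules, spreads, weights, blocks, thresholds and arrays left out. Replicate numbers were not taken to pair the tissues: same-numbered livers and intestines correlated at -0.04 to 0.15 (median 0.04), and 1 of 9 pairs exceeded 0.1.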

Additional observations from a re-analysis of the deposited data

Results flagged for a closer look

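The donor difference differed between the tissues by the test of that difference (limma over 11965 genes, adjusted p under 0.05) for 946 genes above and 483 below, as described. Of the 88 genes named with values, 73 are among them. In lipid and glucose metabolism these were G6pc (-4.97), Fabp1 (-3.52), Scd1 (-3.37), Angptl4 (-3.24), Acacb (-3.11), Pdk4 (-2.70), Me1 (-2.59), Lpin1 (-2.31), Acaa1b (-2.22), Acly (-2.13), Pklr (-2.11), Pck1 (-1.84), Khk (-1.80), Tkfc (-1.78), Apoc2 (-1.68), Slc27a2 (-1.46), Acaa2 (-1.32), Pltp (-0.81), Ppara (-0.57) and Lcat (0.65). In sterol and xenobiotic metabolism they were Cyp3a11 (-2.41), Ces2g (-2.35), Ephx2 (-1.59), Cyp27a1 (-1.20), Sc5d (-0.83), Srebf2 (1.14), Fmo1 (1.24), Nr1h4 (1.27), Sqle (1.91), Cyp39a1 (2.19) and Fmo2 (3.70). In folding and stress responses they were Pdia3 (0.65), Hsp90aa1 (0.76), Herpud1 (0.90), Hspa5 (1.06), Bag3 (1.32), Ddit3 (1.44), Creld2 (1.92), Asns (1.98), Sdf2l1 (2.02) and Derl3 (2.38).

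In immune and acute phase genes the values were -1.27 for Il18, -1.10 for Ifi27, 0.81 for Irgm1, 0.84 for H2-DMa, 0.88 for Hp, 1.52 for Herc6, 1.73 for Ly96, 1.82 for Lbp, 1.88 for Zbp1 and 1.89 for Lcn2. In iron handling they were 0.86 for Slc11a2, 1.19 for Hmox1, 1.48 for Tfrc and 2.57 for Slc40a1. Among signalling, clock and protein turnover genes they were -2.61 for Mme, -2.33 for Bcl6, -2.23 for Ttc39c, -2.06 for Tubb2a, -1.36 for Ulk1, -1.31 for Fosb, -1.16 for Dusp1, -0.84 for Bhlhe40, 0.56 for Psmd3, 0.75 for Psma1, 0.77 for Psmd7, 0.81 for Lamp2, 0.86 for Nags, 1.17 for Asl, 1.21 for Per1, 2.08 for Trim24, 2.93 for Socs2 and 3.21 for Slc16a5.

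Of 100 groups of 4 or 5 arrays whose values are given, 4 held an array far from the others by the test of Dixon, where chance gives about 1 in 20. Hspa1b stood at 8.40 on intestine YMT replicate 4, against at most 5.87 on the other YMT arrays. Nr1d1 stood at 9.76 on liver YMT replicate 1, with the nearest at 8.81. Angptl4 stood at 5.75 on intestine YMT replicate 3, with the nearest at 6.44, and Acacb at 5.10 on intestine OMT replicate 5, with the nearest at 4.75.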

How the results depend on the processing

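Among named genes, none of 96 called tissue differences changed sign under the alternatives run, and 6 of 15 that were not called did. The 96 were mostly named for a large difference or a small p on these same arrays. A change of sign was therefore unlikely from the start, and its absence is no measure of stability. The split of all called genes turned under other scalings, for reasons that were not tested. The tissue difference was called for 620 genes above and 778 below after each array was centred within its tissue. It was called for 642 and 650 after quantile normalization within each tissue and for 663 and 670 over all arrays. The split kept its direction with a filter at the 75th percentile (851 above, 321 below) and with array weights (1291 above, 734 below). At a threshold of 0.10 the counts were 1502 above and 772 below, and with at least 1 on the log2 scale 136 and 120. Without intestine OMT replicates 1 and 2, 542 lay above. Genes called in opposite directions numbered 38 without a filter, 102 with array weights, 27 with a spread of its own for each tissue, 29 without intestine OMT replicates 1 and 2, 148 at 0.10 and 4 at a change of at least 1 in both tissues; in the same direction there were 176, 399, 145, 153, 464 and 16. With single arrays left out, 625 to 1161 lay above, 324 to 509 below, 28 to 84 in opposite and 167 to 283 in the same direction. With the replicate number as a fixed block over the tissues 827 lay above and 405 below, as a random block 1021 and 529 (consensus correlation 0.036), and with numbers 1 to 5 as a block 839 and 435; 3 of 9 livers correlated best with the intestine of their own number. Of 1962 comparisons of named genes with other settings, arrays left out singly aside, 112 lost a call and 2 gained one. Of 1998 comparisons with an array left out singly, 141 lost a call and 1 gained one. Few arrays and levels near background limit small differences. Of 25 tested genes with a donor group wholly at or below the array medians, 11 were called (44%, against 11.9% of all genes). Such genes could pass the level filter through the other donor group alone, so this share does not measure that limit.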
